A study of Mus musculus with 16 samples.

Results

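Cyclin-dependent kinase (CDK) inhibitors are small proteins that bind CDKs and hold cells back from dividing. Their transcripts were described here in hematopoietic stem cells (HSCs) sorted by surface MAC-1, the integrin of CD11B and CD18. The 7 genes were taken by name from the table of counts, which lists 46078 genes: *Cdkn1a*, *Cdkn1b*, *Cdkn1c*, *Cdkn2a*, *Cdkn2b*, *Cdkn2c* and *Cdkn2d*. Each name stood on 1 line. Of the 7, 5 passed the filter on low counts that left 13661 genes for testing, and *Cdkn2a* and *Cdkn2b* did not.

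All samples were labelled as strain B6.SJL with genotype WT. LSK SLAM cells (lineage-negative, cKIT+, SCA1+, CD48-, CD150+) were sorted from bone marrow enriched for cKIT. Steady-state (SS) HSCs were labelled untreated, although the protocol text that all samples share also describes the transplantation, and were split into MAC-1- and MAC-1low cells, with 3 samples each. The 4 week HSCs came from recipients given 900 cGy of irradiation and 8000 LSK cells 4 weeks earlier, and were split into MAC-1- (3 samples), MAC-1low (4 samples) and MAC-1+ cells (3 samples). No age of the mice is stated in the sources used. The labels do not say which samples came from separate mice, so p-values measure only the spread between these 16 samples, which may be technical.

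The family has 2 branches. The Cip/Kip branch (*Cdkn1a*, encoding p21; *Cdkn1b*, p27; *Cdkn1c*, p57) binds complexes of CDK2 with cyclin E or A and can also help to assemble those of CDK4 and CDK6 with cyclin D. The INK4 branch (*Cdkn2a*, p16 and, from a separate first exon, p19ARF; *Cdkn2b*, p15; *Cdkn2c*, p18; *Cdkn2d*, p19) binds CDK4 and CDK6 alone. Both keep the retinoblastoma proteins unphosphorylated, and p27 and p57 are known for keeping HSCs out of the cell cycle.

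The promoters of *Cdkn1b* and *Cdkn2d* are shown, since these were the inhibitors with an unadjusted p below 0.05 in a joint test over the 5 populations. The sequences are from RefSeq (GRCm38.p6) and run, on the strand of the gene, from 250 bases before to 50 after the start. That of *Cdkn1b* lies at chr6:134920151-134920450 (+) and that of *Cdkn2d* at chr9:21291160-21291459 (-). Capitals mark matches, on either strand, to 3 motifs, none of which overlaps another in these windows. The motifs were the GC box GGGCGG, found in 35.7% of 32851 mouse promoters of this length, the CCAAT box CCAAT (37.4%) and the TATA box TATAAA (13.6%).
Cdkn1b: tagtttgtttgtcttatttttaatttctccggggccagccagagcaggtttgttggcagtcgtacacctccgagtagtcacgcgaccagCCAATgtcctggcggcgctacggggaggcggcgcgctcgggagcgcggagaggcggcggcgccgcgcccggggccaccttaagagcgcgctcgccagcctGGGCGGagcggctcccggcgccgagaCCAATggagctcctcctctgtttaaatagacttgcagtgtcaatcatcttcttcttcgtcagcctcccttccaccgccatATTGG
Cdkn2d: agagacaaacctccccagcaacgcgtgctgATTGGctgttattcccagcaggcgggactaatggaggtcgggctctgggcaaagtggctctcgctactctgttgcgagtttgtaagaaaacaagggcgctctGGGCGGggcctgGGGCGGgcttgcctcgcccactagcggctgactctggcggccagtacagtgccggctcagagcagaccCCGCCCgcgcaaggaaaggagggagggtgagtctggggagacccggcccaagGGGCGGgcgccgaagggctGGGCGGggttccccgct
The *Cdkn1b* promoter held 1 GC box and 3 CCAAT boxes, and that of *Cdkn2d* held 5 GC boxes and 1 CCAAT box. Neither held a TATA box in this window. These are matches of letters, and binding was not measured.

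Total counts ran from 13781278 to 28580658 per sample, and 14533 to 17576 genes had a count. The HSC markers (*Kit*, *Ly6a*, *Slamf1*, *Procr* and 6 others) were all detected in each population, with sums of 739 to 941 CPM (counts scaled to a common library size) in 4 week MAC-1-, 2298 to 3485 CPM in 4 week MAC-1+ and 1505 to 2104 CPM in the other samples. Sums of the markers of other lineages also differed. The 7 neutrophil markers summed to 23.1 to 69.6 CPM in 4 week MAC-1-, with *Ltf* and *Elane* at 0, to between 38.4 and 147 CPM in 4 week MAC-1low and to 164, 948 and 7238 CPM in the 4 week MAC-1+ samples, where all 7 were detected. They summed to 79.2 to 111 CPM in SS MAC-1- and 131 to 168 CPM in SS MAC-1low. The 5 megakaryocyte markers summed to 4014 to 6542 CPM in 4 week MAC-1- against 136 to 195 CPM in 4 week MAC-1+ and 277 to 1009 CPM in the other samples, with all 5 detected in each population. The 5 T and NK cell markers summed to 16 to 175 CPM in 4 week MAC-1+ against 323 to 641 CPM in 4 week MAC-1- samples, with *Cd3e* and *Cd3g* at 0 in both, and to 163 to 379 CPM in the others. *Gzma* was also at 0 in 4 week MAC-1+ and *Klrb1c* in 4 week MAC-1-, so that 2 of the 5 were detected in each. Of the 2 tested between them, 1 had a positive and 1 a negative log2 fold change. The 7 erythroid markers summed to 91.1 to 197 CPM in 4 week MAC-1+ against 23.6 to 28.1 CPM in 4 week MAC-1- samples, and to 28.1 to 131 CPM in the others. Neither pair of ranges overlapped. Between these populations edgeR called 1 gene of each list and 3.25% of all genes. The 5 monocyte markers summed to 345 to 760 CPM over all samples. Whether the HSCs themselves or other cells held these transcripts, and their part in the results, was not tested. Fewer cells of a type and less RNA per cell cannot be told apart in such bulk samples.

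Per length of exon, *Cdkn2d* was the most abundant inhibitor transcript in 16 of 16 samples. Its share of the summed RPKM (CPM per kilobase of exon) of the family was between 61.7% and 96.1%. The family summed to 30.4 to 98.3 RPKM. The INK4 branch was represented by *Cdkn2d* and *Cdkn2c* alone, since *Cdkn2a* and *Cdkn2b* had 0 counts in each of the 16 samples. Such a 0 leaves room for at most 3 counts per library, or 0.112 to 0.22 CPM at these depths, by counting error only. *Cdkn2a* (chr4:89274471-89294653) and *Cdkn2b* (chr4:89306299-89311039) are neighbours in the genome, and both encode inhibitors associated with cellular ageing and tumour suppression.

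**Figure D1:**
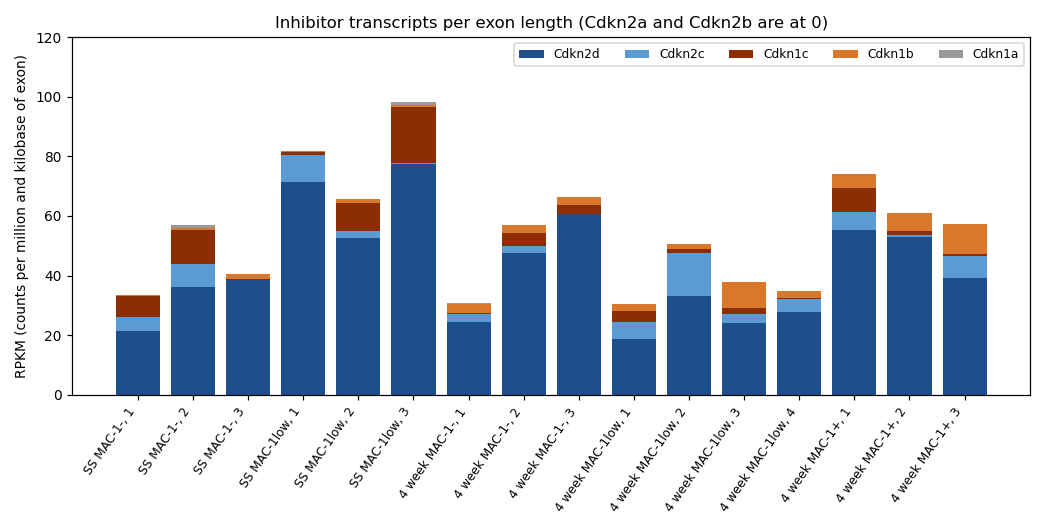
Stacked bars of the level per length of exon, in RPKM, of 5 inhibitor transcripts in each of the 16 samples. Dark blue (*Cdkn2d*) makes up 61.7% to 96.1% of each bar, and the orange part (*Cdkn1b*) is widest in the 4 week MAC-1+ samples and 1 of the 4 week MAC-1low samples.

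The second place in mean RPKM differed between populations. In SS HSCs it was held by *Cdkn1c*, at 6.09 ± 5.73 (SD, n = 3) in MAC-1- and 9.70 ± 8.85 (SD, n = 3) in MAC-1low cells. In 4 week HSCs it was held by *Cdkn1b* in MAC-1- (2.69 ± 0.168, SD, n = 3) and MAC-1+ cells (6.93 ± 2.69, SD, n = 3), and by *Cdkn2c* in MAC-1low cells (6.85 ± 5.27, SD, n = 4). The SDs of *Cdkn1c* and *Cdkn2c* are as large as most of the gaps between these places, and the order below *Cdkn2d* was not tested. It was the same in TPM.

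*Cdkn1b* (chr6:134920401-134925513, exon length 4552 bases), the gene of p27, was lowest in SS HSCs. Its levels were 2.42, 3.56 and 7.11 CPM in SS MAC-1- and 1.15, 5.80 and 2.93 CPM in SS MAC-1low samples. After transplantation they were 13.1, 11.7 and 11.9 CPM in MAC-1-, 10.2, 6.60, 39.9 and 10.7 CPM in MAC-1low and 21.8, 27.7 and 45.3 CPM in MAC-1+ samples. Thus the 3 MAC-1+ samples lay above all 6 SS samples and above the 3 MAC-1- samples of the same time, and overlapped the MAC-1low samples through the single one at 39.9 CPM. The lowest MAC-1- sample at 4 weeks was also above every SS sample.

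The population means stood in the order SS MAC-1low (3.29 ± 2.35 CPM, SD, n = 3), SS MAC-1- (4.36 ± 2.45, SD, n = 3), 4 week MAC-1- (12.2 ± 0.765, SD, n = 3), 4 week MAC-1low (16.8 ± 15.5, SD, n = 4) and 4 week MAC-1+ (31.6 ± 12.2, SD, n = 3). No neighbours in this order differed in edgeR's quasi-likelihood test. The log2 fold change of 4 week MAC-1+ against SS MAC-1low was 3.26 (SE 0.95, 95% interval 1.24 to 5.28), with an unadjusted edgeR p of 0.00366 and a Benjamini-Hochberg adjusted p of 0.153. Against SS MAC-1- it was 2.85 (SE 0.93, interval 0.87 to 4.84, edgeR adjusted p = 0.177). Neither passed the threshold of 0.1 in edgeR, while DESeq2 gave adjusted p of 2.31e-04 and 0.00125. The gene was thus called by 1 of 3 tools, since limma-voom gave 0.207 and 0.262.

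Between the 4 week populations the fold changes of the p27 transcript were smaller, and none was called. MAC-1+ against MAC-1- gave 1.37 on the log2 scale (SE 0.89, interval -0.52 to 3.25, edgeR adjusted p = 0.563), and the samples did not overlap. MAC-1+ against MAC-1low gave 0.91 (interval -0.81 to 2.63). MAC-1low against MAC-1- gave 0.46, and -0.39 without the sample at 39.9 CPM. For MAC-1low cells, 4 week against SS gave 2.35 (SE 0.88, edgeR adjusted p = 0.492), which was 1.45 without that sample. The sample at 39.9 CPM had the highest neutrophil marker sum of its population (147 CPM). In SS MAC-1- the sample with the highest sum (111 CPM) had the least *Cdkn1b* (2.42 CPM). The same held in SS MAC-1low (168 and 1.15 CPM) and in 4 week MAC-1- (69.6 and 11.7 CPM). The MAC-1+ sample with the highest neutrophil marker sum (7238 CPM) was also the one with the most *Cdkn1b* (45.3 CPM). Without it, MAC-1+ against SS MAC-1low was 2.89 (SE 1.05, edgeR adjusted p = 0.335), against SS MAC-1- 2.48 and against 4 week MAC-1- 1.05, and the other 2 MAC-1+ samples, at 21.8 and 27.7 CPM, still lay above all SS and 4 week MAC-1- samples.

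**Figure D2:**
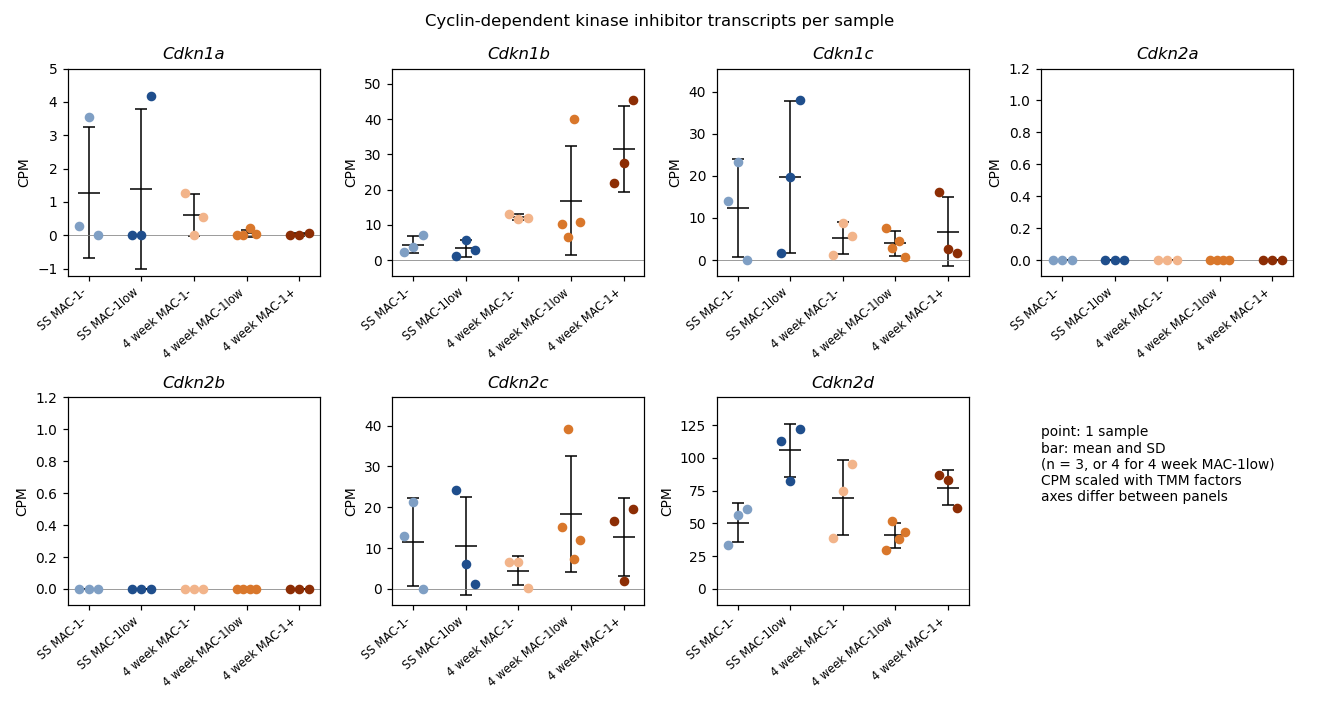
Level in CPM of the 7 inhibitor transcripts in each sample (points), with mean and SD per population (bars). *Cdkn1b* is highest in 4 week MAC-1+ samples (21.8 to 45.3 CPM), *Cdkn2d* in SS MAC-1low samples (82.8 to 122 CPM), and *Cdkn2a* and *Cdkn2b* are at 0 throughout.

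A comparison of 4 week with SS HSCs over the mean of their MAC-1- and MAC-1low populations was added after the levels had been seen. It gave 1.92 on the log2 scale for *Cdkn1b* (SE 0.62, interval 0.59 to 3.25, edgeR adjusted p = 0.208, DESeq2 adjusted p = 0.00343). *Cdkn1c* (-1.78, SE 1.15) and *Cdkn2d* (-0.46, SE 0.27) had edgeR adjusted p of 0.585 and 0.523. The value of *Cdkn2c* was -0.27 (SE 1.04), which turned to 0.33 under limma-voom and to 0.10 with the replicate block.

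*Cdkn2d* (chr9:21288410-21291407, exon length 1574 bases), the gene of the INK4 protein p19, was highest in SS MAC-1low HSCs. These samples had 113, 82.8 and 122 CPM, against 33.5, 56.7 and 61.3 CPM in SS MAC-1- samples, without overlap. At 4 weeks the mean was lower in MAC-1low than in MAC-1- cells. MAC-1low samples had 29.5, 52.1, 38.2 and 43.6 CPM, MAC-1- samples 38.6, 74.7 and 95.6 CPM and MAC-1+ samples 86.9, 83.5 and 61.8 CPM. All 4 of the 4 week MAC-1low samples lay below every SS MAC-1low and every 4 week MAC-1+ sample.

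The log2 fold change of SS MAC-1low against SS MAC-1- was 1.07 (SE 0.39, interval 0.23 to 1.90), with an unadjusted edgeR p of 0.0158 and an adjusted p of 0.513. At 4 weeks MAC-1low against MAC-1- gave -0.77 (SE 0.36, interval -1.54 to -0.0018, edgeR adjusted p = 0.682). The difference between these contrasts, tested as an interaction, was -1.84 (SE 0.53, interval -2.97 to -0.70), with an unadjusted edgeR p of 0.00355 and an adjusted p of 0.394. DESeq2 gave an adjusted p of 0.00852 for it. The interaction kept its sign with each of the 16 samples left out (-2.12 to -1.54).

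The largest of the 8 differences of *Cdkn2d* in size was that of MAC-1low cells at 4 weeks against SS, at -1.37 (SE 0.36, interval -2.14 to -0.60, edgeR adjusted p = 0.308, DESeq2 adjusted p = 0.0025). MAC-1+ against MAC-1low at 4 weeks gave 0.92 (SE 0.36, edgeR adjusted p = 0.682). MAC-1+ and MAC-1- cells at 4 weeks had a log2 fold change of 0.15 for this gene (interval -0.67 to 0.98). In the order of population means (4 week MAC-1low 40.8 ± 9.47 CPM, n = 4; SS MAC-1- 50.5 ± 14.9, n = 3; 4 week MAC-1- 69.6 ± 28.8, n = 3; 4 week MAC-1+ 77.4 ± 13.6, n = 3; SS MAC-1low 106 ± 20.4 by SD, n = 3) no neighbours differed by the edgeR test where they were compared. The lowest pair was not tested, and its samples overlap.

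**Figure D3:**
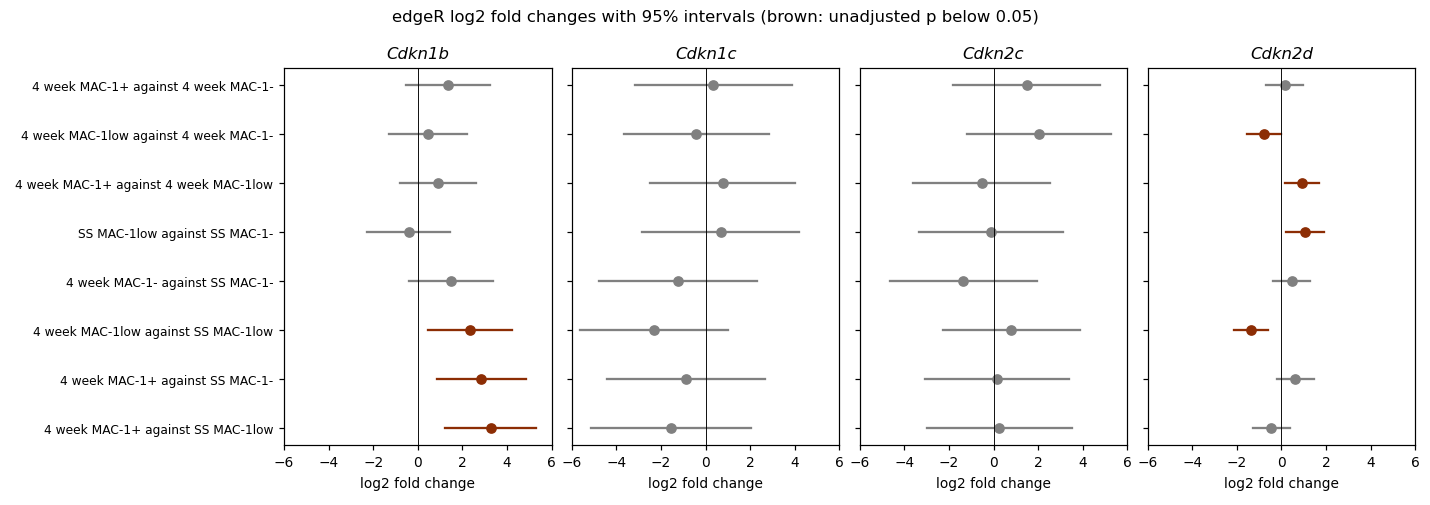
Points give edgeR's log2 fold change (x axis) and bars its 95% interval for 4 inhibitor genes in the 8 comparisons of populations, with brown for an unadjusted p below 0.05. The 3 brown bars of *Cdkn1b* are all comparisons of 4 week MAC-1low or MAC-1+ with SS HSCs, and the intervals of *Cdkn1c* and *Cdkn2c* all span 0.

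*Cdkn1c* (chr7:143458339-143461050, exon length 2039 bases), the imprinted gene of p57, varied widely between samples of a population. Its levels were 14.1, 23.2 and 0 CPM in SS MAC-1-, 1.77, 19.7 and 37.9 CPM in SS MAC-1low, 1.25, 8.86 and 5.73 CPM in 4 week MAC-1-, 7.65, 2.84, 4.52 and 0.786 CPM in 4 week MAC-1low and 16.1, 2.51 and 1.58 CPM in 4 week MAC-1+ samples. The 3 highest levels were all in SS samples, and 2 of the 6 SS samples were below 2 CPM. The samples overlapped in all 8 comparisons. The log2 fold changes ran from -2.32 (4 week against SS in MAC-1low cells, SE 1.56, interval -5.64 to 0.99, edgeR adjusted p = 0.740) to 0.77 (4 week MAC-1+ against MAC-1low, SE 1.53, interval -2.48 to 4.02). With such intervals, changes of several fold were not detectable. Of the exons, 625 bases are shared with an antisense gene model in GENCODE M21, and whether reads were counted by strand is not stated, so reads from either strand cannot be told apart.

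Of 7 genes around *Cdkn1c* in its imprinted domain or next to it (*Kcnq1ot1*, *Phlda2*, *Slc22a18*, *Kcnq1*, *Cd81*, *Tssc4* and *Nap1l4*), 6 were tested and 0 were called by edgeR in any comparison. *Phlda2*, an imprinted gene that limits placental growth, was the only one with an unadjusted edgeR p below 0.05 in a comparison. DESeq2 called it and, in 4 week MAC-1+ against SS MAC-1low, also *Slc22a18*, and limma-voom called 1 gene of the list in 4 week MAC-1+ against MAC-1-. It had 63.9 ± 12.2 CPM (SD, n = 3) in SS MAC-1- and 62.9 ± 9.14 CPM (SD, n = 3) in SS MAC-1low, against 21 ± 2.75 CPM (SD, n = 3) in 4 week MAC-1-, 20.7 ± 5.60 CPM (SD, n = 4) in MAC-1low and 10.8 ± 9.23 CPM (SD, n = 3) in MAC-1+ cells. In the added comparison of 4 week with SS cells its log2 fold change was -1.60 (SE 0.62, edgeR adjusted p = 0.285, DESeq2 adjusted p = 0.0771).

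*Cdkn2c* (chr4:109660876-109667189, exon length 2686 bases), the gene of p18, spread as widely. It had 13, 21.3 and 0.0512 CPM in SS MAC-1-, 24.2, 6.14 and 1.23 CPM in SS MAC-1low, 6.58, 6.63 and 0.302 CPM in 4 week MAC-1-, 15.2, 39.1, 7.29 and 12 CPM in 4 week MAC-1low and 16.6, 1.88 and 19.6 CPM in 4 week MAC-1+ samples. The 4 MAC-1low samples at 4 weeks lay above the 3 MAC-1- samples of the same time, and the samples overlapped in the other 7 comparisons. That difference was 2.03 on the log2 scale (SE 1.52, interval -1.20 to 5.26, edgeR adjusted p = 0.956). The lowest sample, SS MAC-1- replicate 3, had a single read of *Cdkn2c* and 0 of *Cdkn1c*, with a total of 21086753 counts and the most genes detected of all (17576).

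*Cdkn1a* (chr17:29090976-29100727), the gene of p21 and a target of p53, was detected in few samples. It had 189 counts in all, of which 68 fell in a single SS MAC-1- sample and 81 in a single SS MAC-1low sample, and 8 of 16 samples had 0. The 4 week MAC-1low samples had 0, 0, 4 and 1 counts and the MAC-1+ samples 0, 0 and 2. With counts in so few samples, no fold change is read from it. The gene passed the filter through the samples in which it was high, and its exons share 273 bases with a gene model on the other strand.

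**Figure D4:**
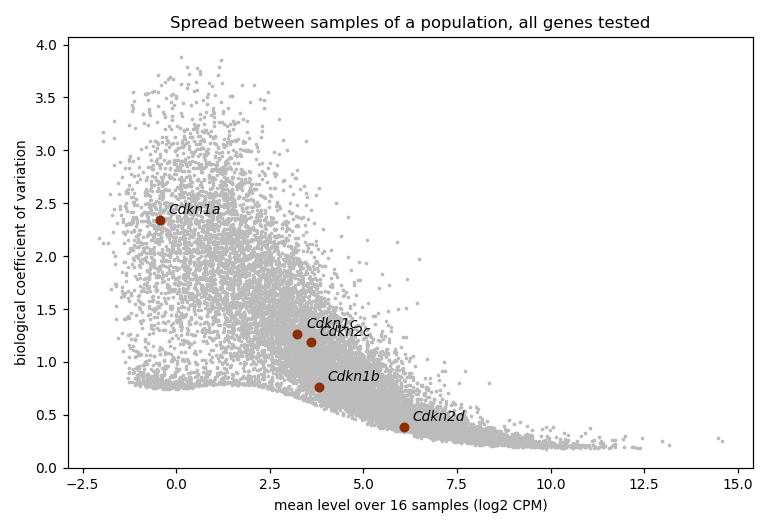
Biological coefficient of variation (BCV, y axis) against the mean level in log2 CPM (x axis) for the 13661 genes tested (grey) with the 5 tested inhibitors in brown. *Cdkn1b* and *Cdkn2d* lie in the lower part of the cloud at their level.

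The spread between samples of a population sets how small a change could be seen. The BCV, the relative SD beyond counting error, was 0.386 for *Cdkn2d* and 0.764 for *Cdkn1b*. Among the 500 genes nearest in level, 7.6% and 10.8% had a lower BCV. For *Cdkn2c* (1.19), *Cdkn1c* (1.27) and *Cdkn1a* (2.34) it was between 58.4% and 69.2%. Over the 16 samples, Pearson's r of log2 CPM between 2 of the 5 ranged from -0.32 (*Cdkn2c* and *Cdkn2d*) to 0.40 (*Cdkn1a* and *Cdkn1c*). Spearman's rho of these pairs was -0.24 and 0.13, and *Cdkn1a* was at 0 in 8 of the 16 samples. The points share libraries and depth, and populations differ in their means.

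Counted over the family, edgeR called 0 of the 5 tested inhibitors at an adjusted p below 0.1 in each of the 8 comparisons, the interaction, the joint test and the added comparison, and limma-voom also called 0. At an unadjusted p below 0.05 it was 1 inhibitor in 4 week MAC-1low against MAC-1-, in MAC-1+ against MAC-1low, in SS MAC-1low against MAC-1-, in 4 week MAC-1+ against either SS population, in the interaction and in the added comparison. It was 2 in 4 week MAC-1low against SS MAC-1low and in the joint test, and 0 in the other 2. These counts stand against the background of all 13661 genes. In 4 week MAC-1+ against MAC-1-, 3.25% of all genes were called, 13.4% had an unadjusted p below 0.05 and 21.7% had samples without overlap, against 1 of 5 inhibitors without overlap (*Cdkn1b*). In 4 week MAC-1low against MAC-1- these shares of all genes were 0.278%, 7.25% and 10.8%, with *Cdkn2c* the inhibitor without overlap. In 4 week MAC-1+ against MAC-1low they were 0%, 6.85% and 8.21%, and in SS MAC-1low against MAC-1- 0.0146%, 9.36% and 11.3%, with *Cdkn2d* without overlap in both.

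For 4 week against SS, the shares of all genes were 0.432%, 10.4% and 16.6% in MAC-1- cells, where *Cdkn1b* did not overlap, and 0.0439%, 8.89% and 10.4% in MAC-1low cells, where *Cdkn1b* and *Cdkn2d* did not. In 4 week MAC-1+ against SS MAC-1- they were 2.36%, 14% and 17%, with *Cdkn1b* and *Cdkn2d* without overlap, and against SS MAC-1low 1.42%, 12.1% and 16.2%, with *Cdkn1b* without overlap. The interaction had 0.0586% of genes called and 8.73% at the unadjusted level, and the joint test 2.22% and 13.8%. In the added comparison 0.864% were called, 12.6% had an unadjusted p below 0.05 and 0.922% had samples without overlap, against 0 inhibitors. The 4 week MAC-1- and SS samples serve in several of these comparisons, which are therefore not independent. DESeq2 called *Cdkn2d* in SS MAC-1low against MAC-1- (adjusted p = 0.0478), in 4 week against SS MAC-1low cells, in the interaction and in the joint test, and *Cdkn1b* in 4 of the comparisons with SS cells and in the joint test. Over all genes DESeq2 called 1605 in 4 week MAC-1+ against MAC-1-, where edgeR called 444, and 936 in SS MAC-1low against MAC-1-, where edgeR called 2.

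Genes of the kinases and cyclins that the inhibitors bind were taken as a list. *Cdk6*, which encodes a target of the INK4 proteins that promotes exit of HSCs from quiescence, was lower in MAC-1+ than in MAC-1- cells at 4 weeks. Its levels were 61.3, 93.7 and 44.4 CPM there, against 288, 288 and 228 CPM in MAC-1- and 179, 107, 177 and 181 CPM in MAC-1low samples of the same time. SS samples had 103, 135 and 162 CPM in MAC-1- and 170, 282 and 153 CPM in MAC-1low cells. The 3 MAC-1+ samples were thus the lowest of all 16, and the lowest of them (44.4 CPM) was the sample with the highest neutrophil marker sum (7238 CPM). The log2 fold change against 4 week MAC-1- was -2.01 (SE 0.33, edgeR adjusted p = 0.00563), and it was called with each of the 16 samples left out and under all 8 alternatives, DESeq2 and limma-voom among them. Against SS MAC-1low it was -1.60 (SE 0.33, edgeR adjusted p = 0.0523), a call lost without SS MAC-1low replicate 2 (0.185), 4 week MAC-1+ replicate 1 (0.144) or replicate 3 (0.144), under limma-voom (0.102) and with only the groups compared (0.285).

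The other INK4 partners were *Cdk4* and the D cyclins *Ccnd1*, *Ccnd2* and *Ccnd3*. All 5 partners had negative values in 4 week MAC-1+ against MAC-1- (median -0.60, against 0.067 over all genes). Of the 5, 1 was called, *Cdk6*, against 3.25% of all genes. *Cdk4* was at 254 ± 63.9 CPM (SD, n = 3) in MAC-1+ and 385 ± 23.8 CPM (SD, n = 3) in MAC-1- cells, at -0.60 on the log2 scale. Of the 7 Cip/Kip partners (*Cdk2*, *Cdk1* and cyclins E, A and B), 6 were negative in this comparison (median -1.48). By edgeR 0 were called, although 3 had an unadjusted p below 0.05, as had 13.4% of all genes. The count called was 2 in both DESeq2 and limma-voom, which called 11.6% and 6.34% of all genes. With no filter, the stricter filter, only the groups compared or detected genes as covariate, edgeR called 1. *Ccnb2* (-1.61, SE 0.47, edgeR adjusted p = 0.106) and *Cdk1* (-1.48, SE 0.47, edgeR adjusted p = 0.15), which drive mitosis, were nearest to the threshold. *Cdk2* itself had 36.3 ± 4.61 CPM (SD, n = 3) in MAC-1- and 53.0 ± 5.67 CPM (SD, n = 3) in MAC-1+ cells. Of the retinoblastoma genes *Rb1*, *Rbl1* and *Rbl2*, the proteins that the pathway ends on, edgeR called 0 of 3 in any comparison. DESeq2 called *Rbl1* in SS MAC-1low against MAC-1- (1.00 on the log2 scale by edgeR, with an unadjusted edgeR p of 0.0153 and a DESeq2 adjusted p of 0.059).

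**Figure D5:**
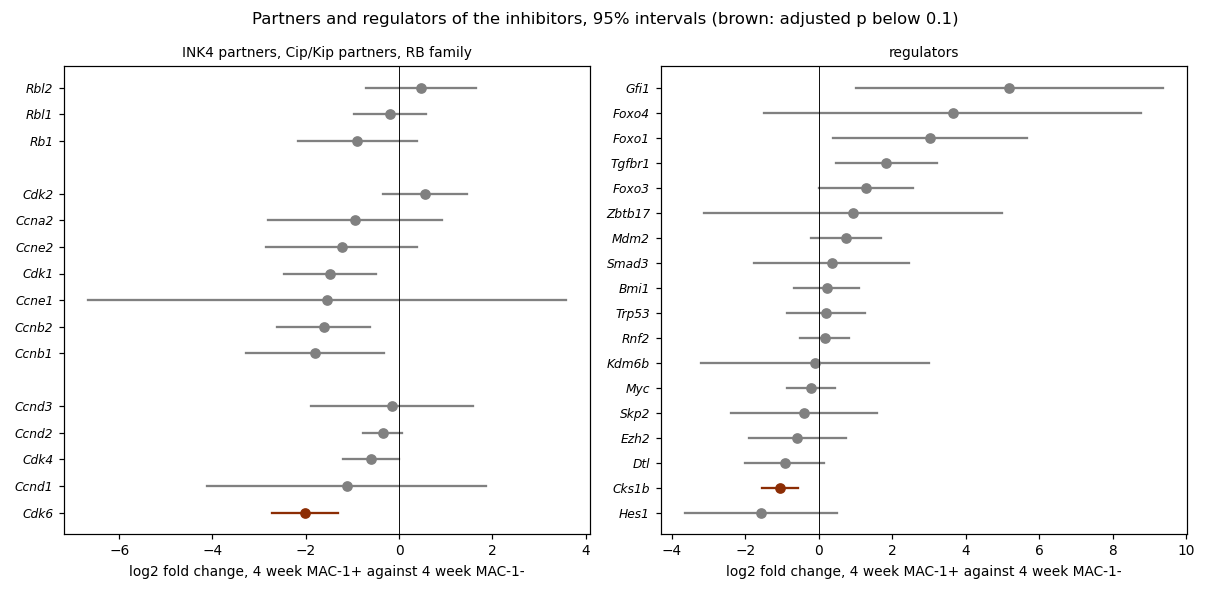
edgeR's log2 fold change of 4 week MAC-1+ against MAC-1- HSCs (x axis) with 95% intervals for partners of the inhibitors and the retinoblastoma genes (left) and for genes that regulate the inhibitors (right). *Cdk6* (-2.01) and *Cks1b* (-1.06), in brown, passed the adjusted threshold.

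Among 18 genes known to act on the inhibitors, *Cks1b* was lower in MAC-1+ than in MAC-1- cells at 4 weeks. Its protein is the cofactor with which SKP2 marks p27 for degradation. Its levels were 279, 362 and 301 CPM in MAC-1+ against 714, 627 and 618 CPM in MAC-1- samples, and 346 to 619 CPM in MAC-1low samples. The log2 fold change against 4 week MAC-1- was -1.06 (SE 0.23, edgeR adjusted p = 0.0245), a call lost without 4 week MAC-1- replicate 1 (0.102) or 4 week MAC-1+ replicate 3 (0.122). Against SS MAC-1low it was -0.92 (SE 0.23, edgeR adjusted p = 0.0957), called with 1 of the 16 samples left out (edgeR adjusted p up to 0.262) and under 2 of 8 alternatives. *Skp2* itself was at 37.6 ± 16.4 CPM (SD, n = 3) in MAC-1- and 28.3 ± 27.3 CPM (SD, n = 3) in MAC-1+ cells and was not called.

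The other regulator called by edgeR was *Rnf2*, which encodes a Polycomb protein that represses the *Cdkn2a* locus. It was higher in 4 week MAC-1+ (177 ± 69.6 CPM, SD, n = 3) than in SS MAC-1low cells (68.6 ± 15.2 CPM, SD, n = 3), at 1.36 on the log2 scale (SE 0.32, edgeR adjusted p = 0.0813), and was called with 6 of the 16 samples left out (edgeR adjusted p up to 0.231) and under 4 of 8 alternatives. The MAC-1+ samples had 129, 257 and 144 CPM. They overlapped 4 week MAC-1- (170, 141 and 165 CPM), 4 week MAC-1low (160, 93.7, 174 and 124 CPM) and SS MAC-1- samples (105, 117 and 144 CPM). *Bmi1*, the partner of *Rnf2*, and the methyltransferase *Ezh2*, also repressors of the *Cdkn2a* locus, were called by neither edgeR nor DESeq2 in any comparison. The same held for *Trp53*, *Mdm2* and *Myc*. In 4 week MAC-1+ against MAC-1-, 4 of the 18 regulators had an unadjusted edgeR p below 0.05, as had 13.4% of all genes. The median was 0.20 over the list and 0.067 over all genes. DESeq2 and limma-voom each called 4 there, against 11.6% and 6.34% of all genes. For DESeq2 the 4 were *Cks1b*, *Gfi1*, *Foxo1* and *Tgfbr1*. Elsewhere DESeq2 also called *Hes1* and *Foxo4*, both in SS MAC-1low against MAC-1- (adjusted p = 0.0455 and 0.0371).

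Genes of DNA replication and mitosis are transcribed mainly in cycling cells. The 16 proliferation genes summed to 1326 to 1925 CPM in 4 week MAC-1+ and 2614 to 2995 CPM in 4 week MAC-1- samples, without overlap. They summed to 2104 to 2213 CPM in 4 week MAC-1low, 1404 to 1673 CPM in SS MAC-1- and 2102 to 3053 CPM in SS MAC-1low samples. In 4 week MAC-1+ against MAC-1-, 14 of 16 had negative values (median -0.81). Over all genes the median was 0.067, with 13.4% at an unadjusted edgeR p below 0.05 and 3.25% called. Of the 16, 7 had such a p and 2 fell past the edgeR threshold. These were *Tyms*, for the synthesis of thymidylate (-1.90, SE 0.39, edgeR adjusted p = 0.0186), and *Mcm3*, of the replicative helicase (-1.36, SE 0.38, edgeR adjusted p = 0.0939), the latter called with 2 of the 16 samples left out (edgeR adjusted p up to 0.357) and under 3 of 8 alternatives. *Tyms* was also lower in 4 week MAC-1+ than in SS MAC-1low cells (-1.98, SE 0.39, edgeR adjusted p = 0.0469), a call lost without SS MAC-1low replicate 2 (0.144) or 4 week MAC-1+ replicate 1 (0.109), 2 (0.123) or 3 (0.133), and with only the groups compared (0.227). In SS MAC-1low against MAC-1-, the comparison in which *Cdkn2d* was higher without overlap, 14 of 16 proliferation genes were positive (median 0.73). By edgeR 0 were called and 4 had an unadjusted p below 0.05, and DESeq2 called 1. Over all genes the median there was 0. Of all genes, 9.36% had such an edgeR p, 0.0146% were called by edgeR and 6.78% by DESeq2.

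The genes whose pattern over the 16 samples was most like that of an inhibitor were found among 9706 genes with a mean of at least 5 CPM, by Pearson's r of log2 CPM. For *Cdkn1b* they were *Hspa1b* (0.79), *Casp1* (0.79) and *Hspa1a* (0.78). The Hspa1 genes, of the inducible HSP70 chaperones, are near-identical copies between which reads may be split. For *Cdkn2d* they were *Atp5d* (0.82), *Rabep2* (0.75) and *Rpl7a* (0.74), for *Cdkn1c* *Ldah* (0.85), *Zfand3* (0.82) and *Stx4a* (0.80), and for *Cdkn2c* *Enkur* (0.89), *Myg1* (0.87) and *Triqk* (0.85). By ranks, Spearman's rho of these pairs ran from 0.51 (*Cdkn2c* and *Myg1*) to 0.82 (*Cdkn1b* and *Hspa1b*). For scale, 1.83% of the genes reached an r above 0.5 with *Cdkn2d* and 5.92% to 6.05% with the other 3.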

How the data were processed

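RNA of 16 samples of sorted HSCs was sequenced with SMART-Seq v4 and Nextera XT libraries, without molecular identifiers. The authors deposited raw counts per gene, made after alignment with STAR in an nf-core pipeline. DESeq2 is named in the submitters' processing notes. For the counting program, genome build and annotation, nothing is given in the sources used here. Gene positions and exon lengths came from GENCODE M21 (GRCm38), which held 98.2% of the gene identifiers, and promoters from RefSeq (GRCm38.p6).

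Counts were tested with edgeR 4.0.16 (TMM scaling, filterByExpr, robust quasi-likelihood fit) in R 4.3.3, with 1 mean per population over all 16 samples. P-values were two-sided and adjusted by Benjamini-Hochberg over 13661 genes, and genes were called at an adjusted p below 0.1. CPM used TMM-scaled totals, log2 CPM a prior count of 2, and RPKM the exon length. The interaction was the MAC-1low against MAC-1- difference at 4 weeks minus that in SS cells, and the joint test asked whether the 5 means differed at all. Alternatives were DESeq2 1.42.0, limma-voom (limma 3.58.1) with sample weights, DESeq2 size factors, other filters (none, or at least 1 CPM in 3 samples), the groups compared alone, the number of detected genes as covariate, a replicate block, a threshold of 0.05, TPM for levels and each sample left out. The scripts were tested on simulated data.

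The inhibitors and the lists (INK4 partners, Cip/Kip partners, RB family, regulators, *Cdkn1c* domain, proliferation and cell markers) were chosen with earlier results of these data known. The result of 1 list of cell markers is not reported here. From the lists, genes called at an adjusted p below 0.1 were named, up to 4 per list and comparison. *Cdk4*, *Cdk2*, *Cdk1*, *Ccnb2*, *Skp2*, *Phlda2*, *Slc22a18*, *Rbl1* and the regulators that DESeq2 but not edgeR called were named after their values had been seen. Calls of limma-voom in the regulators and the *Cdkn1c* domain are given as counts only. The comparison of 4 week with SS cells over both MAC-1 fractions was also added after seeing the data. Genes most like an inhibitor were the 3 of highest Pearson's r over the 16 samples.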

Additional observations from a re-analysis of the deposited data

Results flagged for a closer look

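*Cdkn1b* in 4 week MAC-1low replicate 3 stood far from the other samples of its population, at 39.9 CPM against 6.60 to 10.7 CPM. Its gap to the nearest sample was 0.877 of the range of the population, above Dixon's 95% critical value of 0.829 for 4 samples. For a single gene with normally distributed values, chance gives such a gap in about 1 in 20 groups. The flag holds for the CPM scale only. In log2 CPM the sample was at 5.32 against 2.75 to 3.43 in the others, a smaller relative gap. This check was set for 4 samples, so it covered the 4 week MAC-1low population alone, and the populations of 3 samples were not checked.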

How the results depend on the processing

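edgeR called 0 inhibitors under each edgeR alternative and with each of the 16 samples left out, and limma-voom called 0. DESeq2 called 1 inhibitor in SS MAC-1low against MAC-1-, in 4 week MAC-1+ against either SS population, in the interaction and in the added comparison, and 2 in 4 week against SS MAC-1low cells and in the joint test. The shares of all genes that DESeq2 called in these are given in the results. Over all genes DESeq2 called 557, 452, 1078, 657, 1703, 1299, 753, 1324 and 1876 where edgeR called 38, 0, 59, 6, 323, 194, 8, 118 and 303, in the order 4 week MAC-1low against MAC-1-, MAC-1+ against MAC-1low, 4 week against SS in MAC-1- and in MAC-1low cells, MAC-1+ against the MAC-1- and then the MAC-1low SS cells, interaction, added comparison and joint test. The cause was not tested. Of 446 values of single genes under alternatives, 408 kept direction and side of the threshold and 7 were called only there, by DESeq2. Calls were lost for *Cks1b* (6 of 8 alternatives), *Rnf2* (4), *Cdk6* (2) and *Tyms* (1) in MAC-1+ against SS MAC-1low and for *Mcm3* (5) in MAC-1+ against MAC-1- at 4 weeks. A further 13 reversed, all of *Cdkn1a*, *Cdkn1c* or *Cdkn2c* and none called. Under limma-voom the reversed log2 fold changes were -0.18 (*Cdkn1c*, 4 week MAC-1+ against MAC-1-), 0.12 (*Cdkn1c*, 4 week against SS MAC-1-), -1.03 and 0.088 (*Cdkn1a* and *Cdkn2c*, SS MAC-1low against MAC-1-) and 0.33 (*Cdkn2c*, added comparison). With detected genes as covariate they were 0.20 (*Cdkn1c*, 4 week MAC-1low against MAC-1-), 0.32 (*Cdkn1a*, MAC-1+ against MAC-1low), 0.47 (*Cdkn2c*, SS MAC-1low against MAC-1-) and 1.41 (*Cdkn1c*, MAC-1+ against SS MAC-1-).

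With the replicate block 0 inhibitors were called in each comparison, the calls of *Mcm3* (adjusted p = 0.111), *Rnf2* (0.134) and, against SS MAC-1low, *Cks1b* (0.173) were lost, and the reversed values were 0.46 (*Cdkn2c*, MAC-1+ against MAC-1low), -3.72 and 0.089 (*Cdkn1a* and *Cdkn2c*, SS MAC-1low against MAC-1-) and 0.10 (*Cdkn2c*, added comparison). Of 30 same-numbered pairs 0 had a correlation of deviations over 0.1 (-0.025 to 0.040), and 6 of 16 samples correlated best with their own number. This does not settle pairing, since the sample names run in another order than the replicate numbers. They set 4 week MAC-1- replicate 2 beside MAC-1low replicate 3 (r = 0.023) and MAC-1+ replicate 3 (-0.011). MAC-1- replicate 3 stands beside MAC-1low replicate 4 (0.020). A pairing by these names was not tested.

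With a sample left out, 30 of 928 values reversed. *Cdkn1a* ranged from -3.37 to 0.78 (4 week MAC-1+ against 4 week MAC-1low), from -7.70 to 3.21 (SS MAC-1low against SS MAC-1-), from -2.24 to 2.00 (4 week MAC-1- against SS MAC-1-), from -6.13 to 3.39 (4 week MAC-1low against SS MAC-1low), from -7.75 to 2.44 (4 week MAC-1+ against SS MAC-1low), from -6.38 to 4.55 (interaction), from -3.64 to 1.12 (added comparison). *Cdkn1b* ranged from -0.39 to 0.75 (4 week MAC-1low against 4 week MAC-1-), from -1.11 to 0.14 (SS MAC-1low against SS MAC-1-). *Cdkn1c* ranged from -1.37 to 0.95 (4 week MAC-1+ against 4 week MAC-1-), from -0.96 to 0.18 (4 week MAC-1low against 4 week MAC-1-), from -0.95 to 1.31 (4 week MAC-1+ against 4 week MAC-1low), from -0.21 to 1.49 (SS MAC-1low against SS MAC-1-). *Cdkn2c* ranged from -1.0 to 0.15 (4 week MAC-1+ against 4 week MAC-1low), from -1.64 to 0.69 (SS MAC-1low against SS MAC-1-), from -0.43 to 0.96 (4 week MAC-1+ against SS MAC-1-), from -0.28 to 1.77 (4 week MAC-1+ against SS MAC-1low), from -0.65 to 0.45 (added comparison). *Cdkn2d* ranged from -0.13 to 0.45 (4 week MAC-1+ against 4 week MAC-1-). Fitted values of *Cdkn1a* rest on few samples with counts, depend on the prior count and are no measure of a change. Depth limits *Cdkn2a* and *Cdkn2b*, at 0 in all samples, and *Cdkn1a* in the 8 samples where it was at 0.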
